A study of Homo sapiens with 8 samples.

Results

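The interaction of interferon-γ (IFN-γ) and the kinase inhibitor AX-0085 was described in A549 cells, a human lung adenocarcinoma line of epithelial origin, across all 8 RNA-seq libraries of the series. The groups were untreated cells, cells given 0.5 μM AX-0085, cells given IFN-γ (20 ng in the labels, which name no volume), and cells given both, with 2 libraries each. In the groups that received them, IFN-γ came first and AX-0085 was added 24 h later, and every culture was harvested after another 24 h. For each gene, the interaction term is the AX-0085 change in the presence of IFN-γ (both minus IFN-γ) minus the AX-0085 change in its absence (AX-0085 minus untreated), on the log2 scale. A term of 0 means that the IFN-γ change and the AX-0085 change add up, and a positive or negative term means that cells with both treatments lay above or below that sum, which is called the additive level here. Of 60664 genes in the count table, 15066 passed the expression filter, and 2800 of them (18.6%) had a term with an adjusted p under 0.05 and a size over 1 (2-fold). These 2800 genes are the members described here.

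IFN-γ binds its receptor on the cell surface and activates the kinases JAK1 and JAK2. Transcription factors of the STAT and IRF families then bind GAS and ISRE sites in the promoters of genes for antigen presentation, antiviral defense and immune regulation, among them CD274, which codes for the checkpoint ligand PD-L1. IFN-γ is also known to slow proliferation in many epithelial cells. AX-0085 was selected by the study as an inhibitor of PD-L1 induction. An additive model asks whether it changed a gene by the same factor with and without the cytokine.

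Total counts lay between 20672828 and 29978251 per library, so that 3 counts correspond to 0.0959 to 0.158 CPM (the count relative to the TMM-scaled library total). The libraries of a group differed beyond sampling noise (chi-square divided by its degrees of freedom, 8.55 to 27.7). Nothing in the sources says that they came from separate cultures, so p-values measure the spread between these libraries, which may be technical. All 12 markers of A549 and epithelial cells were detected, and their summed level was 24611 to 24976 CPM in untreated cells, 22867 to 23683 with AX-0085, 17221 to 17548 with IFN-γ and 20529 to 21583 with both. Of 10 leukocyte markers, 5 were at 0 in every library, among them CD3D, CD3E, MS4A1 and CD68, and the sum did not pass 2.75 CPM, and the 8 endothelial markers summed to at most 0.569 CPM. The 8 fibroblast markers summed to 3.02 to 11.2 CPM, with COL1A2 and THY1 at 0, and the 8 alveolar type 2 markers to 38 to 77.3 CPM, with NKX2-1 and SFTPA1 at 0. The counting settings are not fully given in the sources used here, so a marker at 0 in every library cannot be read as absence of its RNA. Mitochondrial genes took 1.71 to 1.82% of counts with IFN-γ, 2.72 to 3.55% in untreated cells, 4.12 to 5.73% with AX-0085 and 2.87 to 3.43% with both. Their part in the terms below was not tested.

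The term was positive in 1826 genes (12.1% of genes tested) and negative in 974 (6.46%) by the edgeR quasi-likelihood test. By the adjusted p alone, 7577 genes (50.3%) departed from additivity. Among all genes tested its median was 0.05. The most frequent course among positive genes was no call for AX-0085 without IFN-γ and a rise when it followed IFN-γ, which held for 1115 genes (61.1%). Among negative genes, the matching course of no call without IFN-γ and a fall with it held for 474 genes (48.7%). AX-0085 without IFN-γ lowered 222 positive genes that showed no call with IFN-γ, and raised 135 negative genes that showed none with IFN-γ. In 141 positive and 52 negative genes AX-0085 moved expression in the direction of the term under both conditions, past the threshold each time. The 2 AX-0085 changes, which share no library, had a Pearson's r of 0.462 and a Spearman's rho of 0.435 across the 15066 genes, which are not independent replicates.

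**Figure D1:**
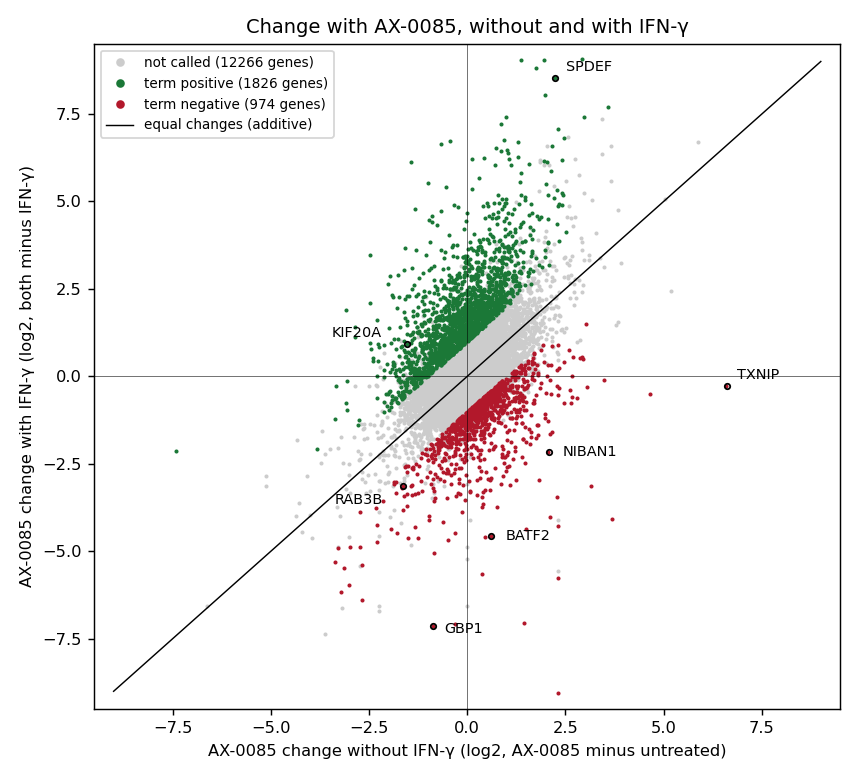
Each point is one of 15066 genes, with the log2 change on AX-0085 treatment without IFN-γ on the horizontal axis and with IFN-γ on the vertical axis. The diagonal marks equal changes, the 1826 genes with a positive term (green) lie above it and the 974 with a negative term (red) below it, and TXNIP stands far to the right because AX-0085 raised it by 6.6 without IFN-γ.

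In the called genes, the terms from the separate sets of 4 libraries numbered 1 and 2 differed by a median of 0.39 where positive and 0.34 where negative. The genes were chosen on these same libraries, so this describes the spread and is no further support. The AX-0085 changes from all pairs of libraries with IFN-γ lay above all those without IFN-γ in 1823 positive genes, and below them in 968 negative genes. Of all genes tested, 34.9% had no overlap in the positive direction and 30.4% in the negative direction. Additivity can also be defined on the linear CPM scale, and there the sign was kept in 1775 of the positive genes (97.2%) and 973 of the negative genes (99.9%). The genes nearest the 2-fold limit included CIRBP just inside, with a term of -1.0, and NMB and CTTNBP2NL just outside, with terms of 1.0 and -1.0 after rounding.

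IFN-γ alone raised 1547 genes (10.3%) and lowered 2590 (17.2%). Among the raised genes, 824 (53.3%) had a negative term with a median of -1.47, and 0 had a positive one. Among the lowered genes, 1594 (61.5%) had a positive term with a median of 1.75, and only BMP6 had a negative one. The remaining 10929 genes gave 232 positive calls (2.12%) and 149 negative calls (1.36%). These classes use the same untreated and IFN-γ libraries as the term, so the counts are a description and not a test. AX-0085 called 966 genes higher (6.41%) and 846 lower (5.62%) without IFN-γ, against 2485 higher (16.5%) and 1248 lower (8.28%) when it followed IFN-γ. Cells with both had 269 genes higher (1.79%) and 261 lower (1.73%) than cells with AX-0085 alone, and 1132 higher (7.51%) and 1090 lower (7.23%) than untreated cells.

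The 5 largest negative terms among the genes that met the naming rule were those of TXNIP, GBP1, GBP2, BATF2 and NIBAN1. TXNIP (ENSG00000265972, chr1:145992435-145996579 of GRCh38) codes for a thioredoxin-binding protein that limits glucose uptake. It had 1 and 4 counts without treatment, 229 and 253 under AX-0085, 463 and 694 under IFN-γ and 651 and 510 under the combination. AX-0085 or IFN-γ alone thus took it far above the untreated libraries, while the levels with IFN-γ and with both were near each other. The additive level was 2490 CPM and the measured level was 21.9 ± 1.49 CPM (SD, n = 2), which gave a term of -6.87 (95% interval -7.56 to -6.17, edgeR adjusted p = 4.84e-09). Without the untreated library numbered 1 or 2 the term was -6.08 and -8.21.

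NIBAN1 (ENSG00000135842, chr1:184790724-184974508), a stress-responsive regulator of translation and cell survival, followed a different course. Its counts were 74 and 47 without treatment, 214 and 264 under AX-0085, 2396 and 3563 under IFN-γ and 949 and 673 under the combination, so that AX-0085 raised it without IFN-γ and lowered it with IFN-γ. The AX-0085 changes were 2.07 and -2.16, and the term was -4.22 (SE 0.17, edgeR adjusted p = 1.76e-09). BATF2 (ENSG00000168062, chr11:64987945-64997018), a basic leucine zipper factor induced by interferons, had 33 and 25 counts without treatment, 48 and 35 under AX-0085, 1587 and 1928 under IFN-γ and 89 and 91 under the combination. Only the IFN-γ libraries stood high, and the term was -5.17 (SE 0.32, edgeR adjusted p = 4.96e-08).

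GBP1 and GBP2 code for guanylate-binding proteins, interferon-induced GTPases that act against intracellular pathogens. GBP1 (ENSG00000117228, chr1:89051882-89065360) had 4 and 2 counts without treatment, 2 and 1 under AX-0085, 6377 and 8034 under IFN-γ and 73 and 53 under the combination. Its change with AX-0085 alone rests on these few counts, with an untreated to AX-0085 ratio of 1.89 (exact 95% counting interval 0.404 to 11.7). In the presence of IFN-γ it fell by 7.13 on the log2 scale (SE 0.09), and the term was -6.27 with a wide interval from -8.52 to -4.01. GBP2 (ENSG00000162645, chr1:89106132-89150456) differed, since AX-0085 alone raised it, from 9 and 9 counts to 51 and 33, while AX-0085 lowered it from 1008 and 1146 counts to 140 and 102 when IFN-γ was present. Its AX-0085 changes were 2.29 and -3.45 and its term was -5.74 (SE 0.35, edgeR adjusted p = 4.96e-08).

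**Figure D2:**
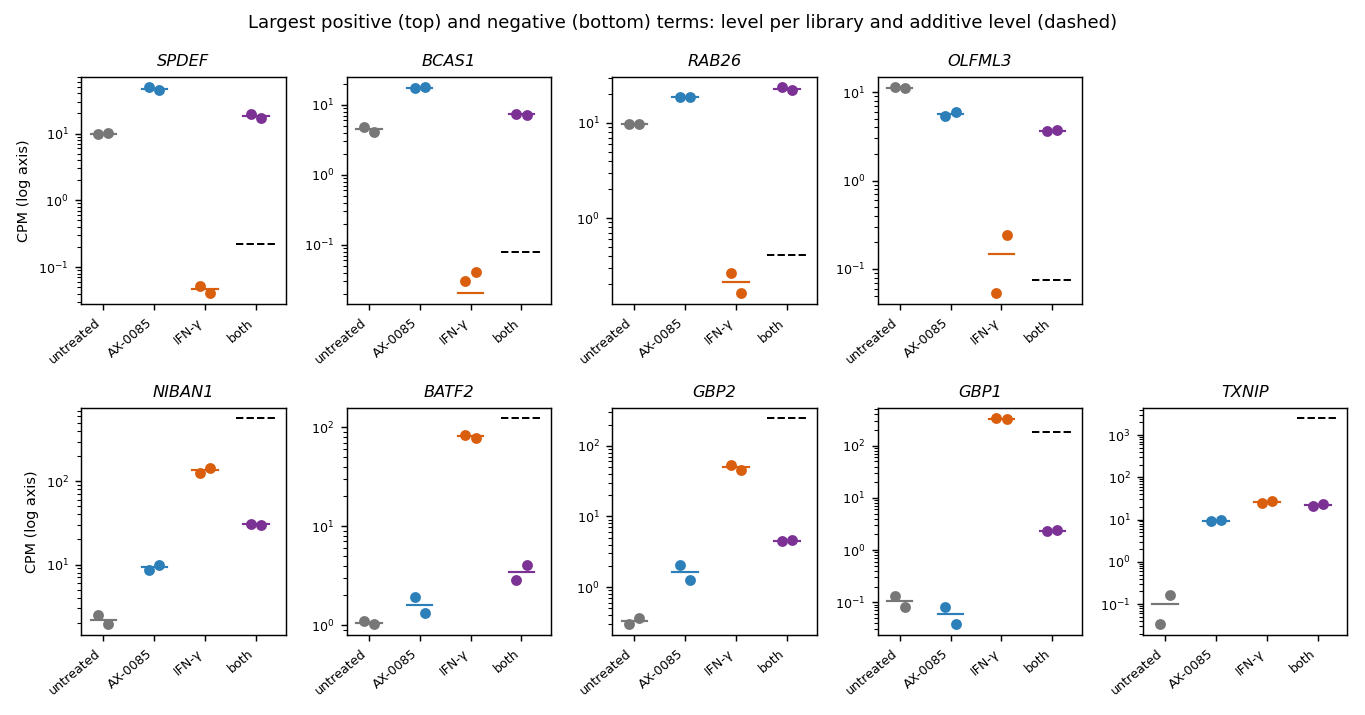
CPM of each library (points, log axis) and group mean (line) for 4 of the 5 largest positive terms (top) and the 5 largest negative terms (bottom), with the additive level in cells given both treatments as a dashed line. A library with 0 counts is drawn at 0.03 CPM, and the both group lies above the dashed line in every top panel and below it in every bottom panel (TXNIP at 21.9 against 2490 CPM).

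The core response to IFN-γ showed the term in 1 direction. Of 38 genes in this list, 29 passed the filter and 9 were listed at 0 in all libraries, and all 29 had a term below 0. The annotation, strand and multimapping settings of the counting are not given in the sources used here, so whether the 9 genes at 0 were expressed is unknown. The call was negative in 24 (82.8%), against 6.46% of all genes tested and 53.3% of all genes that IFN-γ alone raised. IFN-γ alone raised 28 of the 29, and 0 of all the genes it raised had a positive term. The median term was -3.05, or -3.04 with groups of at most 3 counts set to 3 counts per library. The list rose by a median of 4.43 with IFN-γ and showed a median AX-0085 change of 0.05 without it and -3.00 with it. The 5 members without a call included GBP4 (-4.33), GBP5 (-4.46), ICAM1 (-2.05) and CD40 (-0.41), of which GBP4 and GBP5 had at most 1 count in every library without IFN-γ.

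CD274 (ENSG00000120217, chr9:5450503-5470566), the gene of PD-L1, had 3 and 5 counts without treatment, 3 and 10 under AX-0085, 104 and 161 under IFN-γ and 14 and 10 under the combination. Its level with both was 0.449 CPM against an additive level of 9.79 CPM, and the term was -4.49 (SE 0.76, edgeR adjusted p = 0.000295). It was -5.07 and -3.45 without the AX-0085 library numbered 1 or 2. Spans of other annotated genes, introns included and strand ignored, cover 87.8% of the exon bases of CD274. Whether this changed its counts was not tested. WARS1, a tryptophanyl-tRNA synthetase that IFN-γ induces, had 1141 and 994 counts without treatment, 1217 and 1344 under AX-0085, 19448 and 25741 under IFN-γ and 4860 and 3628 under the combination, and its term was -3.04. IRF1, a transcription factor of the response, was listed at 0 in all libraries, which cannot be read as absence of its RNA.

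Promoter sequence of genes with these terms is shown because interferon control acts through short motifs. RefSeq promoters (GRCh38.p14, 250 bases before to 50 after each start) matched 10669 of the 15066 genes tested. The letters searched on both strands were TTCNNNGAA for GAS and, for the ISRE, GAAA repeated after any 2 bases, and matches to one may share bases with the other. In the sequences of GBP1 (chr1:89065316-89065345, minus strand), PSMB10 (chr16:67936852-67936881, minus strand) and CD274 (chr9:5450292-5450502, plus strand), capitals mark the matches.
GBP1: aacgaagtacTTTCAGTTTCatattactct
PSMB10: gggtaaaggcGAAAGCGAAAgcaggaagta
CD274: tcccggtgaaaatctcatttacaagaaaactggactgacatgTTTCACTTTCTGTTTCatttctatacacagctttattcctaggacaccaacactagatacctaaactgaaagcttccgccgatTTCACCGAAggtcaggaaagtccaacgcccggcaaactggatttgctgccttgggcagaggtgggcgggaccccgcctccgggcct
The ISRE match begins at base -127 from the RefSeq start in GBP1 and at -21 in PSMB10, on opposite strands. By the GENCODE gene positions, however, the GBP1 stretch lies inside the gene, downstream of its start. The PSMB10 match crosses the GENCODE start of that gene (67936864), and only the CD274 stretch lies wholly upstream. CD274 holds overlapping ISRE matches at -208 and -202 and a GAS match at -125. ISRE letters were found in 7.42% of 674 promoters of genes with a negative term and 1.19% of 1256 with a positive term, beside 2.77% of all genes tested. Among 503 promoters of genes raised with IFN-γ without an interaction call the ISRE share was 4.77% and the GAS share 6.96%. The share was 38.9% in the core IFN-γ list (7 of 18 promoters) and 70% in the antiviral list (14 of 20). GAS letters were found in 7.42% of negative, 4.78% of positive and 6.04% of all promoters. A match is a description of these letters only.

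Antiviral interferon-stimulated genes gave 16 negative calls among 24 tested (66.7%) and 0 positive ones, beside 6.46% and 12.1% of all genes tested. IFN-γ alone raised 21 of the 24, and 53.3% of all genes it raised had a negative term. The median term of the list was -2.74, or -2.99 with the low groups set to 3 counts. MX1, a GTPase that blocks viral replication, had 19 and 16 counts without treatment, 22 and 22 under AX-0085, 360 and 654 under IFN-γ and 80 and 44 under the combination, and its term was -3.71 (SE 0.44, edgeR adjusted p = 1.45e-05). ISG15, a ubiquitin-like modifier, had a term of -2.99 and IFIH1, a sensor of viral RNA, one of -2.98. USP18, HERC5 and OAS1 had no call for IFN-γ alone in these cells and terms of 0.13, 0.15 and 0.43.

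MHC class I presentation gave 11 negative calls among 16 tested (68.8%) and 1 positive call (6.25%), beside 6.46% and 12.1% of all genes tested. IFN-γ alone raised 13 of the 16, and 53.3% of all genes it raised had a negative term. The median term of the list was -1.44. The immunoproteasome subunit PSMB10 had 69 and 73 counts without treatment, 137 and 114 under AX-0085, 1203 and 1334 under IFN-γ and 248 and 183 under the combination. Its term was -3.76 (SE 0.22, edgeR adjusted p = 2.77e-08). Spans of other annotated genes, introns included and strand ignored, cover 53.1% of the exon bases of PSMB10. The class I heavy chain gene HLA-B had a smaller term of -1.30, and class I genes are similar in sequence to each other, so that their reads may be split. HLA-B held 379 and 330 counts without treatment, 294 and 291 under AX-0085, 21210 and 25952 under IFN-γ and 12135 and 8451 under the combination. With both treatments it was still higher than in untreated cells, by 4.89 against 6.38 with IFN-γ alone. CALR, a chaperone of class I loading, ran the other way, since IFN-γ lowered it from 16256 and 13749 counts to 2623 and 3384, and its term was 1.31 (SE 0.08). For class II presentation, 1 of 7 genes was called in each direction, namely the protease CTSS (-1.66) and the peptide-loading factor HLA-DMB (3.35), and the median term was -0.59 but 0.36 to 0.40 under 3 alternative settings.

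The genes of the IFN-γ receptor and JAK-STAT signaling itself gave 2 positive (13.3%) and 0 negative calls among 15 tested, with a median of 0.16. The positive share was near the 12.1% of all genes tested, where 6.46% were negative. The phosphatase PTPN6 had 828 and 678 counts without treatment, 1042 and 1099 under AX-0085, 78 and 93 under IFN-γ and 921 and 579 under the combination. Only the IFN-γ libraries were low, and the term was 2.24 (SE 0.13, edgeR adjusted p = 3.89e-08). CISH, a feedback inhibitor of cytokine signaling, had a term of 1.35. JAK2 had a term of -0.47 (95% interval -0.84 to -0.10), which did not reach the 2-fold limit, and the receptor chains IFNGR1 and IFNGR2 had terms of 0.19 and 0.35.

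Stress response genes had mostly negative terms, and AX-0085 alone raised part of them (9 of 26, ATF3 not among them). In the list of the integrated stress response, in which the factor ATF4 raises amino acid supply and redox genes, 17 of 26 were called negative (65.4%) and 0 positive. Of all genes tested 6.46% were negative and 12.1% positive, and of all genes that IFN-γ alone raised 53.3% were negative. IFN-γ alone raised 21 of the 26, and the median term of the list was -1.30. The list changed by a median of 1.82 with IFN-γ and 0.63 with AX-0085, and by 1.28 with both, while the additive median was 2.59. ATF3, a stress-induced transcription factor, had 170 and 144 counts without treatment, 236 and 208 under AX-0085, 2853 and 3640 under IFN-γ and 610 and 413 under the combination, and its term was -3.55 (SE 0.14, edgeR adjusted p = 1.43e-09). CHAC1, which degrades glutathione, had 146 and 135 counts without treatment, 849 and 792 under AX-0085, 1786 and 2074 under IFN-γ and 2055 and 1529 under the combination. Its groups with IFN-γ and with both were closer to each other than either was to the untreated libraries, and its term of -3.03 (SE 0.14) came with an AX-0085 change of 2.63 without IFN-γ and -0.40 with it. ATF4 itself had a term of -1.41, with rises of 1.21 and 1.06 for the single treatments and 0.86 for both.

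Among aminoacyl-tRNA synthetases, 4 of 19 were called negative (21.1%) and 1 positive (5.26%), beside 6.46% and 12.1% of all genes tested. GARS1 had the largest term among those that met the rule (-1.46, SE 0.09). The p53 target list gave 10 negative calls among 21 (47.6%) and 0 positive ones. IFN-γ alone raised 12 of the 21, and 53.3% of all genes it raised had a negative term. GADD45A, a growth arrest gene that ATF4 and p53 both induce, had 295 and 302 counts without treatment, 329 and 378 under AX-0085, 4964 and 6985 under IFN-γ and 1129 and 813 under the combination, and its term was -3.22 (SE 0.13, edgeR adjusted p = 2.07e-09). CDKN1A, which codes for the cell cycle inhibitor p21, had a term of -1.42. Cytosolic ribosomal proteins gave 0 calls among 53, although 47 of the 53 terms lay below 0, with a median of -0.44. RPL13A, one of the reference genes, had a term of -0.86 (SE 0.13, edgeR adjusted p = 0.000103). The reference genes ACTB and HPRT1 had terms of 0.10 and -0.08, while AX-0085 changed them by -0.73 and -0.67 without IFN-γ and by -0.62 and -0.75 with it.

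ERK-responsive genes and NF-kB targets were lower with both treatments than the sum of the single changes. For the ERK list, 15 of 27 were called negative (55.6%) and 1, FOS, positive (3.7%), beside 6.46% and 12.1% of all genes tested. IFN-γ alone raised 17 of the 27, and 53.3% of all genes it raised had a negative term. The cytokine gene IL11 had 723 and 594 counts without treatment, 219 and 220 under AX-0085, 9039 and 11934 under IFN-γ and 617 and 433 under the combination. AX-0085 lowered it without IFN-γ (-1.5) and more so with IFN-γ (-4.61), and the term was -3.11 (SE 0.10, edgeR adjusted p = 1.81e-10). FOSL1, a subunit of AP-1, fell by 3.14 without IFN-γ and by 5.47 with it, for a term of -2.33, and DUSP6, a phosphatase that switches off ERK, had a term of -2.99. For MYC the change with AX-0085 alone was 0.14 and the term was -1.72 (SE 0.08).

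The NF-kB and cytokine list gave 12 negative calls among 21 (57.1%) and 1 positive call (4.76%), beside 6.46% and 12.1% of all genes tested. IFN-γ alone raised 13 of the 21, and 53.3% of all genes it raised had a negative term. The median changes of the list were 1.59 with IFN-γ, -1.17 with AX-0085 and -1.04 with both. CXCL2, a neutrophil chemokine, had 142 and 88 counts without treatment, 97 and 81 under AX-0085, 880 and 1182 under IFN-γ and 155 and 81 under the combination. The IFN-γ libraries were the only ones above 155 counts, and the term was -3.15 (SE 0.24, edgeR adjusted p = 2.89e-07). IL6 was counted 48 and 66 times with IFN-γ, 1 and 0 times with AX-0085 and 0 times in the other libraries, so that its fitted term is not a measure of size. TNFAIP2 was the positive member, with a term of 1.67 (SE 0.09). In the list of SRF, YAP and cytoskeletal genes, 6 of 26 were called negative (23.1%) and 0 positive, beside 6.46% and 12.1% of all genes tested. The matrix protein gene CCN1 led the negative calls (-2.19, SE 0.09) and fell by 1.64 with AX-0085 alone and by 3.83 when AX-0085 followed IFN-γ.

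SPDEF, BCAS1, RAB26 and OLFML3 were among the 5 largest positive terms, and IFN-γ alone lowered each of them. SPDEF (ENSG00000124664, chr6:34537802-34556333) codes for a transcription factor of secretory airway cells. It had 301 and 247 counts without treatment, 1234 and 1191 under AX-0085, 1 and 1 under IFN-γ and 621 and 385 under the combination. The ratio of both to IFN-γ alone was 413 (exact 95% counting interval 114 to 3410), and the fitted term was 6.30 (SE 0.37). On the linear scale its departure from additivity was -18.4 CPM, because the rise from AX-0085 alone was larger in CPM than the rise with IFN-γ. BCAS1 (ENSG00000064787, chr20:53936777-54070594) showed the same reversal at -5.84 CPM, with 146 and 100 counts without treatment, 436 and 472 under AX-0085, 0 and 1 under IFN-γ and 230 and 161 under the combination, and its fitted term was 6.07. The ratio of both to IFN-γ alone was 321 (exact 95% counting interval 57.3 to 12700), and the term was 5.37 without the IFN-γ library numbered 1 and 8.58 without the one numbered 2.

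RAB26 (ENSG00000167964, chr16:2140803-2154165), a GTPase of secretory granules, had 296 and 238 counts without treatment, 472 and 497 under AX-0085, 5 and 4 under IFN-γ and 740 and 492 under the combination. Its level with both was 22.9 ± 1.09 CPM (SD, n = 2) against an additive level of 0.409 CPM, and the term was 5.82. OLFML3 (ENSG00000116774, chr1:113979391-114035572), a secreted glycoprotein gene, had 341 and 274 counts without treatment, 135 and 159 under AX-0085, 1 and 6 under IFN-γ and 113 and 83 under the combination. Unlike the others it was lower with both than in untreated cells, by -1.61, and its term was 5.46 (SE 0.35), or 4.87 and 6.96 without the IFN-γ library numbered 1 or 2.

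Genes of regulated exocytosis gave 18 positive calls among 26 (69.2%) and 3 negative ones, against 12.1% and 6.46% of all genes. IFN-γ alone lowered 16 of the 26, and 61.5% of all genes it lowered had a positive term. The median term of the list was 1.5, and its median change was -1.82 with IFN-γ, 0.34 with AX-0085 and 0.03 with both. The list was written with RAB26 and other members known from earlier results of these libraries, so its direction is not independent evidence. SYT12, a synaptotagmin of vesicle release, had 367 and 334 counts without treatment, 75 and 94 under AX-0085, 30 and 36 under IFN-γ and 313 and 272 under the combination. Each treatment alone lowered it, by 1.97 and 3.09, and it was near the untreated level with both, which gave a term of 4.84 (SE 0.23, edgeR adjusted p = 5.32e-09). The 3 negative members were RAB3B (-1.48), STX1A (-1.38) and SYT1 (-1.04).

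Cholesterol synthesis genes gave 12 positive calls among 22 (54.5%) and 0 negative ones, beside 12.1% and 6.46% of all genes tested. IFN-γ alone lowered 16 of the 22, and 61.5% of all genes it lowered had a positive term. The median term of the list was 1.19. INSIG1, which holds back the SREBP factors, had 1474 and 1319 counts without treatment, 637 and 636 under AX-0085, 104 and 148 under IFN-γ and 415 and 287 under the combination. Each treatment alone lowered it, it rose by 1.19 when AX-0085 followed IFN-γ, and its term was 2.24 (SE 0.13). Among glucose uptake and glycolysis genes, 5 of 22 were called positive (22.7%) and 3 negative (13.6%), beside the same 12.1% and 6.46%. Metallothionein and zinc transport genes gave 4 positive (57.1%) and 1 negative call (14.3%) among 7. IFN-γ alone lowered 4 of these 7, and the zinc importer SLC39A10 had a term of 1.52 (SE 0.15).

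The 12 epithelial markers gave 8 positive (66.7%) and 0 negative calls, with a median term of 1.22 and a median IFN-γ change of -1.40. IFN-γ alone lowered 8 of the 12, and 61.5% of all genes it lowered had a positive term. CDH1, which codes for E-cadherin, had 1093 and 879 counts without treatment, 1324 and 1345 under AX-0085, 203 and 272 under IFN-γ and 2557 and 1795 under the combination. The both group was the highest of the 4 and the IFN-γ group the lowest, and the term was 2.38 (SE 0.10, edgeR adjusted p = 2.7e-09). The keratin KRT4 had 890 and 692 counts without treatment, 368 and 400 under AX-0085, 5 and 5 under IFN-γ and 98 and 81 under the combination. It stayed below the untreated level with both, by -3.10, and had a term of 4.81 (SE 0.27). Of 9 keratins, 4 were called positive and KRT17 negative, the latter with at most 4 counts in every library outside the IFN-γ group. In the list of epithelial-mesenchymal and TGF-beta genes, 4 of 26 were called positive (15.4%) and 5 negative (19.2%), beside 12.1% and 6.46% of all genes tested. Airway secretory identity genes gave 5 positive calls (25%) and 1 negative call (5%) among 20, and their median term was 0.11, or -0.06 with low groups set to 3 counts.

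The list of fibrinogen, acute-phase and complement genes gave 10 positive (37%) and 5 negative calls (18.5%) among 27, beside 12.1% and 6.46% of all genes tested. IFN-γ alone lowered 14 of the 27 and raised 7. The fibrinogen chains FGA, FGB and FGG had terms of 1.96, 1.80 and 1.90, and the plasma protein gene APOH had one of 4.01 (SE 0.25, edgeR adjusted p = 6.35e-08). APOH had 257 and 219 counts without treatment, 420 and 453 under AX-0085, 6 and 6 under IFN-γ and 267 and 199 under the combination. Negative calls were those of the complement genes C1S (-2.22), C1R (-1.93), C4A (-1.62) and C4B (-1.86) and of the complement inhibitor CD55 (-1.68). Other complement members were not called, among them C3 (-0.19), C5 (0.66) and CD46 (0.43). C4A and C4B are near-identical copies whose reads may be split. Among integrin subunits, 6 of 19 were called positive (31.6%), and ITGA2, the collagen receptor subunit, was called negative (-1.34, SE 0.18). IFN-γ alone lowered 10 of these 19, and 61.5% of all genes it lowered had a positive term.

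Among receptor tyrosine kinases, 6 of 25 were called positive (24%) and DDR2 negative (4%), beside 12.1% and 6.46% of all genes tested. IFN-γ alone lowered 10 of the 25, and 61.5% of all genes it lowered had a positive term. FGFR3, a fibroblast growth factor receptor, had 314 and 276 counts without treatment, 656 and 758 under AX-0085, 12 and 12 under IFN-γ and 834 and 573 under the combination. It rose by 1.34 without IFN-γ and by 5.57 with it, and the term was 4.23 (SE 0.20, edgeR adjusted p = 5.96e-09). ERBB3, the neuregulin receptor, had a term of 3.02 and rose by 1.64 without and by 4.66 with IFN-γ. EGFR and MET were not called, with terms of -0.67 and -0.36. NRF2 target genes, which are high in A549 cells because of their KEAP1 mutation, gave 3 positive calls (12.5%) and 1 negative call (4.17%) among 24, near the 12.1% and 6.46% of all genes tested, and AKR1B10, an aldo-keto reductase, had a term of 1.25 (SE 0.11, edgeR adjusted p = 8e-07).

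Cell cycle genes had a smaller median fall with both treatments than the sum of the single changes. For mitosis, 17 of 52 were called positive (32.7%) and 0 negative, beside 12.1% and 6.46% of all genes tested. Of the 52 terms 51 lay above 0, and the median was 0.84. IFN-γ alone lowered 11 of these 52 genes and AX-0085 alone 49, while 6 were lower when AX-0085 followed IFN-γ. DNA replication and S phase genes gave 30 positive calls among 52 (57.7%) and 0 negative ones. This positive share was near the 61.5% of all genes that IFN-γ alone lowered. All 52 terms lay above 0, with a median of 1.03. Each treatment alone lowered 37 of these 52 genes. The median change of the list was -1.38 with IFN-γ, -1.23 with AX-0085 and -1.48 with both, where the additive median was -2.54.

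KIF20A, a kinesin of the cleavage furrow, had 4219 and 3600 counts without treatment, 1243 and 1312 under AX-0085, 529 and 715 under IFN-γ and 1729 and 1172 under the combination. AX-0085 lowered it by 1.53 without IFN-γ and changed it by 0.93 with IFN-γ, for a term of 2.46 (SE 0.09, edgeR adjusted p = 1.09e-09). FAM111B, a protease gene linked to DNA replication, had 1023 and 780 counts without treatment, 283 and 284 under AX-0085, 27 and 40 under IFN-γ and 159 and 102 under the combination. It fell by 1.58 with AX-0085 alone and rose by 1.67 when AX-0085 followed IFN-γ, and the term was 3.25 (SE 0.18). E2F1, a transcription factor of S phase entry, had 1931 and 1594 counts without treatment, 552 and 574 under AX-0085, 234 and 335 under IFN-γ and 603 and 426 under the combination, and its term was 2.13 (SE 0.11). The helicase subunit MCM2 was close in the 3 treated groups, at -1.17 with AX-0085, -1.03 with IFN-γ and -1.01 with both.

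**Figure D3:**
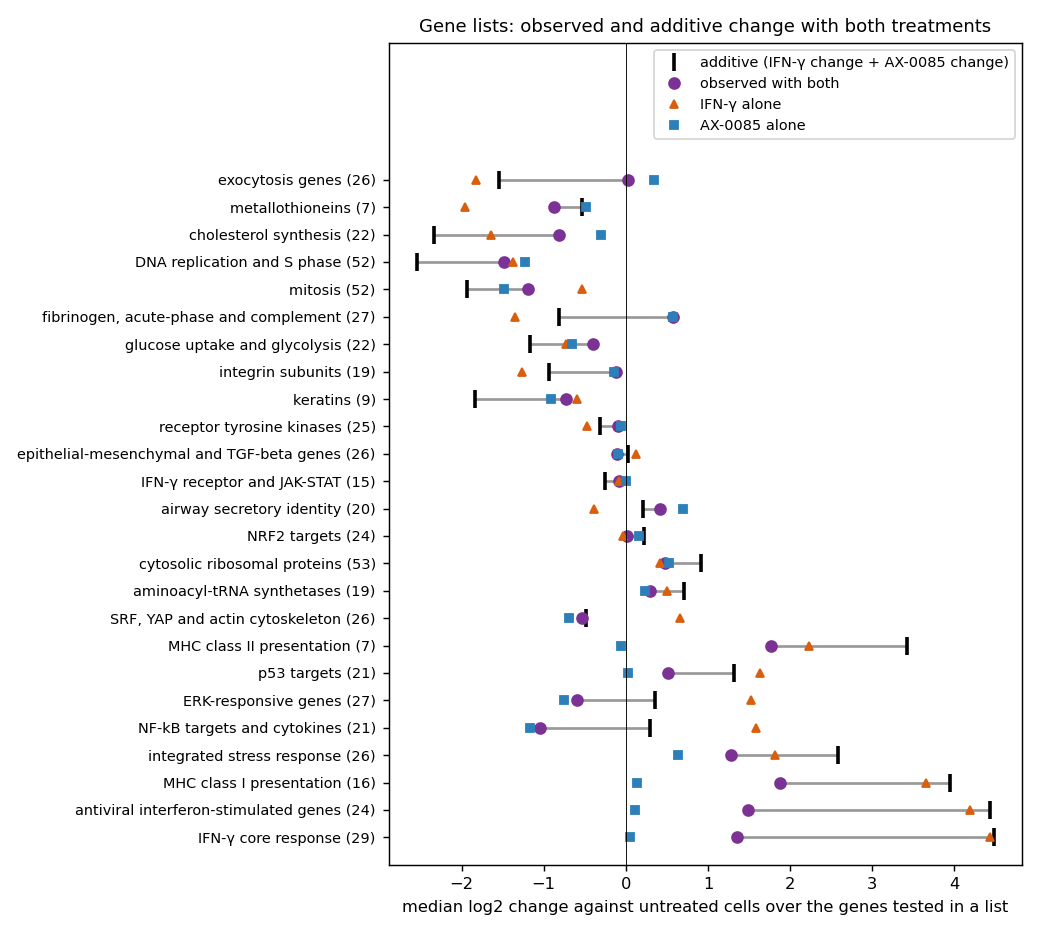
Median log2 change against untreated cells over the tested genes of each list (number in parentheses) for IFN-γ alone (triangle), AX-0085 alone (square), both (circle) and the additive value (bar). The circle lies left of the bar for the immune, stress, ERK and NF-kB lists and right of it for the cell cycle, cholesterol and exocytosis lists, with 1.35 against 4.48 for the core IFN-γ response and -1.48 against -2.54 for DNA replication.

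Promoters of cell cycle genes are shown because 2 motifs mark the phases, the CHR element of genes that peak in mitosis and the E2F site of genes that peak at S phase entry. The letters searched on both strands were TTTGAA for CHR, and TTTGGCGC or TTTCCCGC for E2F. In ZWINT (chr10:56361274-56361509, minus strand) and ESPL1 (chr12:53268049-53268298, plus strand), mitotic genes for a kinetochore protein and for separase, and in E2F1 (chr20:33686386-33686635, minus strand), capitals mark the match.
ZWINT: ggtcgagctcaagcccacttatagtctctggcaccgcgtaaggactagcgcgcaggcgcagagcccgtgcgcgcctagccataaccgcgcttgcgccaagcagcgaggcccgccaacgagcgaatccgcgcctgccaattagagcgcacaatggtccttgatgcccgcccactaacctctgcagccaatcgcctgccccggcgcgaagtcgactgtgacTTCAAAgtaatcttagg
ESPL1: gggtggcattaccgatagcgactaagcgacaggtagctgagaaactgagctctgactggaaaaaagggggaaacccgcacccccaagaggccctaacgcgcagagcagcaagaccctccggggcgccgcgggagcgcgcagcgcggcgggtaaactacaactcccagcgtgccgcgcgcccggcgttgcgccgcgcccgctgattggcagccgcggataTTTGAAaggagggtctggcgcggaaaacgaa
E2F1: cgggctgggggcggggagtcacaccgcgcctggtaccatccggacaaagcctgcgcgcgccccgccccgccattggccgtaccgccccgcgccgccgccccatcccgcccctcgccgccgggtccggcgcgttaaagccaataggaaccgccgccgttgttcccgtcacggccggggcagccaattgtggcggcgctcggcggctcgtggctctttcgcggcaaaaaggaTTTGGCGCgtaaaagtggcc
The match begins at base -31 in both mitotic promoters, on opposite strands, and at -20 in E2F1. These promoters were picked from called list members because they hold the match. ZWINT and ESPL1 had terms of 1.46 and 1.43, while KIF20A, with a term of 2.46, held no CHR letters in the window. CHR letters were found in 68.2% of 44 mitosis promoters and 4.65% of 43 replication promoters, beside 9.82% of all genes tested. E2F letters were found in 46.5% of replication promoters, 2.27% of mitosis promoters and 3.65% of all. In the called genes as a whole the shares stood nearer to those of all genes, at 10.7% for CHR and 3.82% for E2F among positive terms, and 8.75% and 2.37% among negative terms. For the CARE letters of ATF4 targets, TGATGNAAT, 0 of 23 promoters of the stress list and 0.487% of all held a match in this window.

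Genes not called with IFN-γ alone gave 381 interaction calls, 232 positive and 149 negative. The commonest course among the positive ones was a rise that appeared only in the calls with IFN-γ present (107 genes), followed by no call for either AX-0085 change (66), a fall with AX-0085 alone that was not called with IFN-γ (43) and a rise called in both settings (13). Among negative ones, 66 had no call for either change, 50 were lower only in the calls with IFN-γ and 26 were raised only in the calls without it. Mitosis genes held 8 of the positive calls, BIRC5, NCAPG, PLK1, DLGAP5, CDC25C, CDC20, TROAP and ESPL1. Of 52 mitosis genes tested, IFN-γ alone raised 0 and lowered 11, and the median change of the 52 with IFN-γ was -0.54. A gene without a call may thus still have moved by less than 2-fold. Among all genes not called with IFN-γ, 2.12% had a positive term. PLK1, the kinase that drives mitotic entry, had 6437 and 5880 counts without treatment, 1703 and 1913 under AX-0085, 2962 and 3708 under IFN-γ and 3211 and 2249 under the combination. It fell by 1.69 with AX-0085 alone, changed by -0.58 when AX-0085 followed IFN-γ, and had a term of 1.11 (SE 0.09). The CHR letters were found in 15.8% of 152 promoters of the positive genes not called with IFN-γ, ESPL1 and other mitosis genes included. The share was 9.82% among all genes tested and 15.4% among all 27305 RefSeq promoters searched.

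A stricter set holds 3094 genes whose IFN-γ change had an adjusted p of at least 0.05 and a 95% interval inside 2-fold. In this set 37 genes had a positive term (1.2%) and 13 a negative one (0.42%). For MICALL2 (ENSG00000164877, chr7:1428465-1459470), a partner of Rab GTPases at cell junctions, the counts were 298 and 250 without treatment, 204 and 188 under AX-0085, 216 and 248 under IFN-γ and 856 and 548 under the combination. Only cells with both treatments were high, at 26 ± 1.94 CPM (SD, n = 2) against an additive level of 8.11 CPM, and the term was 1.69 (SE 0.16, edgeR adjusted p = 1.67e-06). ALX4, a homeobox gene, showed the same form, with 375 and 364 counts without treatment, 349 and 337 under AX-0085, 241 and 298 under IFN-γ and 853 and 688 under the combination. Neither single change passed the test (-0.03 and -0.14), and the term was 1.26 (SE 0.15, edgeR adjusted p = 1.89e-05).

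SLC51B, a subunit of a bile acid and steroid exporter, rose with AX-0085 in both settings. It had 24 and 22 counts without treatment, 79 and 94 under AX-0085, 23 and 20 under IFN-γ and 364 and 284 under the combination, so that the rise was 1.99 without IFN-γ and 3.62 with it, and the term was 1.63 (SE 0.33, edgeR adjusted p = 0.00107). HES4, a Notch pathway repressor, had 100 and 190 counts without treatment, 59 and 73 under AX-0085, 99 and 114 under IFN-γ and 184 and 133 under the combination. Its untreated libraries stood far apart, with a mean of 5.52 ± 3.13 CPM (SD, n = 2), the term was 1.36 (SE 0.42, edgeR adjusted p = 0.0162), and it was 0.65 without the untreated library numbered 2.

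On the negative side, RAB3B (ENSG00000169213, chr1:51907956-51990700), a GTPase of vesicle docking, had 1091 and 785 counts without treatment, 285 and 278 under AX-0085, 651 and 871 under IFN-γ and 133 and 80 under the combination. IFN-γ alone changed it by 0.03 (95% interval within 2-fold), AX-0085 lowered it by 1.64 without and by 3.13 with IFN-γ, and the term was -1.48 (SE 0.15, edgeR adjusted p = 3.64e-06). ARFGEF3 and NATD1 were raised by AX-0085 alone, by 1.21 and 1.24, and not in the presence of IFN-γ (-0.12 and 0.09), for terms of -1.32 (SE 0.23) and -1.15 (SE 0.21). NATD1 had 107 and 81 counts without treatment, 214 and 203 under AX-0085, 59 and 80 under IFN-γ and 105 and 75 under the combination. CLVS1, a lipid-binding protein of clathrin vesicles, had a term of -1.09 (SE 0.26), but its untreated counts were 2743 and 1366 and its IFN-γ counts 1271 and 2457, and the term was -0.79 and -0.80 without the untreated or the IFN-γ library numbered 2.

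**Figure D4:**
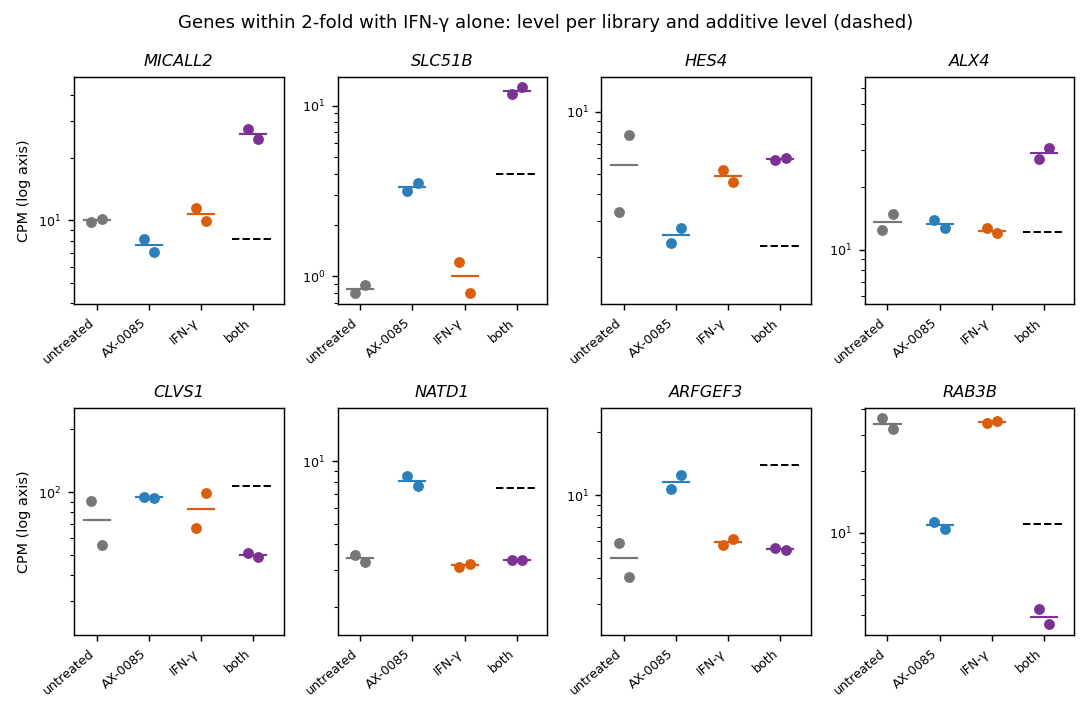
CPM of each library (points, log axis) and group mean (line) for the 8 named genes whose level with IFN-γ alone was within 2-fold of untreated cells, with the additive level as a dashed line. The top row holds positive terms, where MICALL2 and ALX4 are high in cells with both treatments alone, and the bottom row negative terms, where RAB3B falls from 10.9 CPM with AX-0085 to 3.92 CPM with both.

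In 88 genes AX-0085 had called changes of opposite direction, 57 lower without and higher with IFN-γ, and 31 the reverse. Such changes by themselves fix a large term, so the interaction call of these genes adds nothing. Names in this paragraph were chosen after their values were seen. FADS2, a desaturase of polyunsaturated fatty acids, had 18673 and 14341 counts without treatment, 7299 and 7082 under AX-0085, 834 and 1067 under IFN-γ and 5650 and 4040 under the combination, with AX-0085 changes of -1.11 and 2.06 and a term of 3.17. CCND3, which codes for cyclin D3, had AX-0085 changes of -1.60 and 1.02 and a term of 2.63. HSPA2, a heat shock protein gene, had changes of -1.77 and 1.96. In the reverse direction, the viral RNA receptor TLR3 had 24 and 18 counts without treatment, 80 and 98 under AX-0085, 251 and 352 under IFN-γ and 119 and 123 under the combination, so that its AX-0085 changes were 2.16 and -1.58. The DNA sensor IFI16 (1.06 and -2.55), SESN2, a stress-induced inhibitor of mTORC1 (1.60 and -1.92), and TRIB3, a pseudokinase induced by ATF4 (1.24 and -1.02), followed the same course. BMP6, a secreted growth factor gene and the only gene that IFN-γ lowered with a negative term, had 519 and 419 counts without treatment, 654 and 699 under AX-0085, 154 and 200 under IFN-γ and 194 and 133 under the combination. Its term of -1.02 (SE 0.13) stood at the 2-fold limit and was -0.90 with scaling by library size alone.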

How the data were processed

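RNA of A549 cells was measured in 8 libraries of 4 groups, mapped from the sample labels. The authors prepared stranded mRNA libraries, trimmed the reads (Trim Galore 0.6.7), aligned them to GRCh38 (STAR 2.7.9a) and made raw counts per gene (featureCounts), and these deposited counts were not normalized. The annotation release, the strand setting and the handling of multimapping reads are not given in the sources used here. Gene symbols, positions and overlaps come from GENCODE 44 (60463 of 60664 identifiers matched).

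Counts were filtered with filterByExpr (15066 genes kept), scaled with TMM and fitted with the edgeR 4.0.16 quasi-likelihood model in R 4.3.3, with the 4 groups and no covariates. A call needed a Benjamini-Hochberg adjusted p under 0.05 over all genes tested and a log2 term over 1 in size. The common biological coefficient of variation was 0.0609. CPM of single libraries use TMM-scaled sizes, log2 values of single libraries use a prior count of 0.125, and the additive CPM is the product of the IFN-γ and AX-0085 means divided by the untreated mean. Low-count intervals are exact binomial and cover counting error only. With 2 libraries a group, no single gene was tested outside the joint model.

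The members and lists were chosen with earlier results of these data known. Genes were named among protein-coding genes with a call whose average log2 CPM reached 2 and whose AX-0085 changes with and without IFN-γ were separate (1501 genes), as the 5 largest terms of each sign, the 4 largest of each sign within 2-fold with IFN-γ, the largest of each list, up to 3 against the class direction, and a fixed set with CD274, JAK2, IRF1, GBP1 and the reference genes (44 tested in all, IRF1 not among them). Of these, 42 are described, and some genes are not reported here. Other list members are examples chosen after their values were seen.

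On simulated counts with 200 changed genes of 14822, edgeR called 96% of terms planted at 1.5 and 99% of those planted at 2 with the right sign, beside 7 false calls. Changes were planted only in genes with higher mean counts, and counts were drawn from the fitted model with its own dispersions. The recovery therefore does not cover rare transcripts, and spread outside that model was not simulated. Alternatives were DESeq2 1.42.0, RLE factors, library size alone, other filters, the adjusted p alone, glmTreat, a replicate block, the linear scale and leaving out each library. A block with the untreated numbers swapped was chosen after seeing the data.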

Additional observations from a re-analysis of the deposited data

Results flagged for a closer look

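The AX-0085 change differed between cells with and without IFN-γ, by the test of the difference itself, in 1826 genes with a positive term and 974 with a negative one, and 38 of the 42 named genes are among them. The positive terms (log2) were SPDEF 6.30, BCAS1 6.07, RAB26 5.82, OLFML3 5.46, KRT4 4.81, FGFR3 4.23, APOH 4.01, FAM111B 3.25. Below them stood KIF20A 2.46, CDH1 2.38, PTPN6 2.24, MICALL2 1.69, SLC51B 1.63, SLC39A10 1.52, HES4 1.36, ALX4 1.26, AKR1B10 1.25. The negative terms were TXNIP -6.87, GBP1 -6.27, GBP2 -5.74, BATF2 -5.17, CD274 -4.49, NIBAN1 -4.22, PSMB10 -3.76, MX1 -3.71, ATF3 -3.55, GADD45A -3.22, CXCL2 -3.15. Smaller negative ones were IL11 -3.11, CCN1 -2.19, CTSS -1.66, RAB3B -1.48, GARS1 -1.46, ITGA2 -1.34, ARFGEF3 -1.32, NATD1 -1.15, CLVS1 -1.09, BMP6 -1.02. GBP1, CD274, BCAS1 and MX1 had the widest standard errors of these, at 1.04, 0.76, 0.52 and 0.44. With 2 libraries in each group, no single library could be tested for standing apart from the rest of its group.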

How the results depend on the processing

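All 1826 positive and 974 negative calls refer to 2 libraries a group, and precision was lowest for rare transcripts. DESeq2 gave 1399 and 915, RLE factors 1726 and 1043, no filter 1951 and 1027, and a mean of at least 10 counts 1727 and 969. With library size alone the median term moved from 0.05 to 0.17, and calls were 2155 positive and 746 negative, 74.3% positive in place of 65.2%. By the adjusted p alone there were 4025 positive and 3552 negative calls, with 1257 among genes raised with IFN-γ, 4288 among those not called and 568 within 2-fold. Tested against 2-fold with glmTreat there were 748 and 372, with 367 raised, 731 lowered, 22 not called and 6 within 2-fold. Leaving out 1 library gave 1586 to 1783 positive and 873 to 1046 negative calls, with 742 to 885 among raised, 1373 to 1520 among lowered, 335 to 444 among not called genes, and 31 (without the untreated library numbered 2) to 58 within 2-fold, where leaving out the untreated library numbered 1 gave 33. Deviations of same-numbered libraries correlated at -0.317 and -0.32 between the untreated group and AX-0085 or IFN-γ, at 0.321 between AX-0085 and IFN-γ, and between -0.107 and 0.0684 for pairs with the combination. Since not every pair passed 0.1, the numbers were not taken as a pairing, although the first 3 values would all be positive with the untreated numbers swapped. With the replicate number as a block there were 1770 positive and 968 negative calls, and with the untreated numbers swapped 1840 and 991. On the linear scale SPDEF (-18.4 CPM) and BCAS1 (-5.84 CPM) reversed. The MHC class II median turned to 0.38 with no filter, 0.36 with a mean of 10 counts and 0.40 without the AX-0085 library numbered 1, with a range of -0.65 to 0.40 over the left-out libraries. The cause was not tested.

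Of the named terms across all settings, 772 kept their direction and side of the threshold, 16 lost the call, 2 gained one and 2 reversed. Under glmTreat the losses were AKR1B10, ALX4, ARFGEF3, BMP6, CLVS1, HES4, ITGA2, NATD1 and SLC51B. BMP6 and CLVS1 also lost it with library size alone, BMP6 without the library numbered 2 of both treatments, CLVS1 without the untreated or IFN-γ library numbered 2, and HES4 without the untreated library numbered 2 or the AX-0085 library numbered 1 (adjusted p = 0.0546).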

Other observations

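Precision of the term followed the level of the gene. Its median standard error was 0.70 in 2462 genes with a mean under 1 CPM, 0.37 in 2291 genes of 1 to 4 CPM, 0.16 in 4876 genes of 4 to 32 CPM and 0.10 in 5437 genes over 32 CPM. The share of genes with a call was 18%, 32%, 20.2% and 11.8% in these ranges. Below 1 CPM, 332 positive and 112 negative calls were made.

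Non-coding genes took part as well. Among 1702 long non-coding RNA genes tested, 289 had a positive term (17%) and 94 a negative one (5.52%), beside 12.1% and 6.46% of all genes. Among 363 processed pseudogenes, whose reads may come from their parent genes, 10 were positive (2.75%) and 33 negative (9.09%). GAS5, a host gene of small nucleolar RNAs that is known to accumulate when translation slows, was chosen after its values were seen. It had 3545 and 2564 counts without treatment, 10391 and 9264 under AX-0085, 28576 and 30178 under IFN-γ and 16823 and 11248 under the combination. AX-0085 raised it by 1.78 without IFN-γ and lowered it by 1.38 with IFN-γ, and the term was -3.16. ZFAS1, another such host gene, had AX-0085 changes of 1.02 and -1.82 and a term of -2.84. Spans of other annotated genes, introns included and strand ignored, cover 60.2% of its exon bases.

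In the set within 2-fold with IFN-γ alone, further genes chosen after their values were seen were FBLN2, an extracellular matrix gene, with 51 and 48 counts without treatment, 20 and 22 under AX-0085, 24 and 36 under IFN-γ and 99 and 96 under the combination, and a term of 2.58 (SE 0.35). The pump subunit gene ATP1B3 had 4139 and 3444 counts without treatment, 2968 and 2775 under AX-0085, 2935 and 3393 under IFN-γ and 8200 and 5813 under the combination, and a term of 1.16 (SE 0.10). SNAI1, a repressor of E-cadherin, had a term of 1.02 (SE 0.18), with an AX-0085 change of 0.38 without IFN-γ and 1.39 with it.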
